A study of Mus musculus with 27 samples.

Results

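The NRF2 redox enzymes were taken as 6 genes, Srxn1, Txnrd1, Gclc, Gclm, Hmox1 and Nqo1, of the 8251 genes that the platform annotation names with a single symbol on the array. The probe sets were selected by that symbol, and the 6 genes were picked with earlier results of these data known. They had 8 probe sets of the 12488 on the array, since Srxn1 and Nqo1 had 2 each, and all 8 passed the filter on low values that kept 7453 probe sets.

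The study followed NIH/3T3 cells, an established line of mouse embryonic fibroblasts, on 27 Affymetrix arrays to find transcripts with a circadian course. All cultures had their serum lowered in steps and then received 15 µM forskolin, which activates adenylyl cyclase and so raises cyclic AMP, for 2 h in serum-free medium, and were rinsed and kept without serum. The groups were the 9 harvest times, 0 h at the end of the pulse and then every 6 h up to 48 h, with 1 array from each of 3 experiments that the labels call biological replicates. Unpulsed cultures were not analysed here, and at 0 h the pulse and the change to serum-free medium cannot be told apart.

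NRF2, encoded by Nfe2l2, is a transcription factor that KEAP1 and the CUL3 ubiquitin ligase hold at a low level in unstressed cells. Oxidants and electrophiles modify cysteines of KEAP1, and NRF2 then builds up, pairs with a small MAF protein and binds antioxidant response elements near its target genes. BACH1 occupies many of the same elements and keeps Hmox1 low in particular, while Hmox1 also responds to heme and to other stress signals. The 6 enzymes here regenerate peroxiredoxins, reduce thioredoxin, make glutathione, degrade heme and reduce quinones.

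RefSeq promoters (GRCm38.p6) were at hand for 4 of the 6 genes, Srxn1, Txnrd1, Gclm and Nqo1, the last on the minus strand of its chromosome. The 250 bases before the start are shown for 1 start of each, because at least 1 probe set of each fell after 0 h, with or without the block described below. Capitals mark matches on either strand to the core letters of the antioxidant response element, TGACNNNGC or TGAGNNNGC, and to the AP-1 letters TGANTCA. Of Txnrd1's 3 starts, start number 2 is shown, the only one of them with a match to these letters. The first sequence is chr2:152105274-152105523 on the plus strand, the next is chr10:82858956-82859205 on the plus strand, the next is chr3:122245307-122245556 on the plus strand, and the last is chr8:107403206-107403455 on the minus strand, each printed 5′ to 3′ along its gene.
Srxn1: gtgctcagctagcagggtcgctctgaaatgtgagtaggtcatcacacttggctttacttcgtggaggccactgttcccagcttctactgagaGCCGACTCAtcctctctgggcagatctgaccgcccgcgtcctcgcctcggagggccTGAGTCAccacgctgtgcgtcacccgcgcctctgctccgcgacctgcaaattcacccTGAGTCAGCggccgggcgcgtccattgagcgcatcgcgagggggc
Txnrd1: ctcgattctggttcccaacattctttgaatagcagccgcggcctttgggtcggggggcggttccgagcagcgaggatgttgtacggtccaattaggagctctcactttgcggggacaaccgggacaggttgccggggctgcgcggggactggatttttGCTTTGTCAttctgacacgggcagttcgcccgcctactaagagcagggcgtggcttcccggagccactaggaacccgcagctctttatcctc
Gclm: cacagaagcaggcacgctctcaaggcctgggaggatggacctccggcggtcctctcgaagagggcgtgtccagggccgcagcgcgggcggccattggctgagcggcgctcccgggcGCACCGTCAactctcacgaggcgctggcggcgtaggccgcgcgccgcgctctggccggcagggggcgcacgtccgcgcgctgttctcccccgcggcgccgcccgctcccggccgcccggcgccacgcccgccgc
Nqo1: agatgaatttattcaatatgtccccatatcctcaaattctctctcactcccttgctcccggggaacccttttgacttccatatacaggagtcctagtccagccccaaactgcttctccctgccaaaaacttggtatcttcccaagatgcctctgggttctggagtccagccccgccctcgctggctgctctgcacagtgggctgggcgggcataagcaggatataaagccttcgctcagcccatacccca

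The Srxn1 window held 2 matches to TGAGNNNGC, GCCGACTCA on the other strand at −158 to −150 and TGAGTCAGC at −45 to −37, counted from the start. It also held TGAGTCA, an AP-1 match, at −102 to −96 and at −45 to −39, and the second of these lies within the element match. Txnrd1 had 1 match to TGACNNNGC, GCTTTGTCA at −92 to −84, and Gclm 1, GCACCGTCA at −134 to −126, both read on the other strand. The windows of Nqo1 and of Txnrd1's other starts held none of these letters. TGACGTCA, the full form of the cyclic AMP response element, and CACGTG, the E-box of clock factors, were in no window of these genes. Shorter forms of the cyclic AMP response element were not searched. Among 32851 mouse promoters of the same length, 23.0% held at least 1 of the TGACNNNGC and TGAGNNNGC forms, 10.2% the first and 14.4% the other, 6.75% held TGANTCA, 1.55% TGACGTCA and 6.02% CACGTG. A match is a run of letters, not a shown binding site.

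The deposited values are linear intensities that had been scaled on every array to a common trimmed mean between 500.277 and 500.347. Fibroblast markers passed the filter for 11 of 11 listed genes, at the 46th to the 99.7th percentile of mean level, against 0 of 3 endothelial, 1 of 4 epithelial, 1 of 3 adipocyte, 2 of 4 immune, 2 of 4 muscle and 3 of 4 neural markers. The actin 3′ to 5′ ratio, a sign of RNA quality, was 1.702, 1.351 and 1.475 at 0 h in experiments 1, 2 and 3, and lower than that on 7, 8 and 2 of the 8 later arrays of the same experiment. The GAPDH ratio was 0.8218, 0.73 and 0.7764 at 0 h, and lower than that on 6, 1 and 8 of the 8 later arrays. The 2 ratios thus differed in direction between experiments, and the part of either in the results was not tested. The clock output gene Tef had log2 levels of 9.48 (18 h) and 11.45 (30 h) in experiment 1, but of 11.08 (18 h) and 9.82 (30 h) in experiment 2, and likewise 11.02 followed by 10.40 in experiment 3. With that pair of arrays from experiment 1 removed, 4 calls on the 8 probe sets moved among the differences from 0 h: Gclc at 30 h (adjusted p = 0.053) and Gclm at 18 h (0.0545) no longer passed, while the later mean of Nqo1 94351_r_at (0.0485) and 94350_f_at at 18 h (0.0397) passed. Arrays of one experiment deviated together, and the adjusted p with the experiment as a block is given beside each result whose call it changed. Fold changes and SEs are from the fit without that block, on log2(intensity + 12.1), which understates the change of dim probe sets.

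In the mean of the later times, 1 probe set each of Srxn1, Txnrd1, Gclc, Gclm and Hmox1 was lower than at the end of the pulse. Comparing the mean of 6 h to 48 h with 0 h, 5 of the 8 probe sets fell at an adjusted p below 0.05 (limma), 1 for each of these genes, against 5.82% of the 7453 tested. With the experiment as a block 7 fell, against 12.2%, as both Nqo1 probe sets then passed. None of the 8 rose, against 7.38% of all probe sets, or 14.7% with the block. For 4 of them, one each of Srxn1, Txnrd1, Gclc and Gclm, all 3 arrays at 0 h lay above all 24 later arrays, which 2.48% of all probe sets did. The other Srxn1 probe set, 161090_i_at, changed by 0.09 in the later mean, adjusted p = 0.894. Hmox1 differed from 0 h by −0.24 at 42 h and 0.03 at 48 h, neither past the threshold. Without the block, the call for the Hmox1 later mean was lost when any 1 experiment was left out. The plot of the 8 probe sets by array shows these levels.

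**Figure D1:**
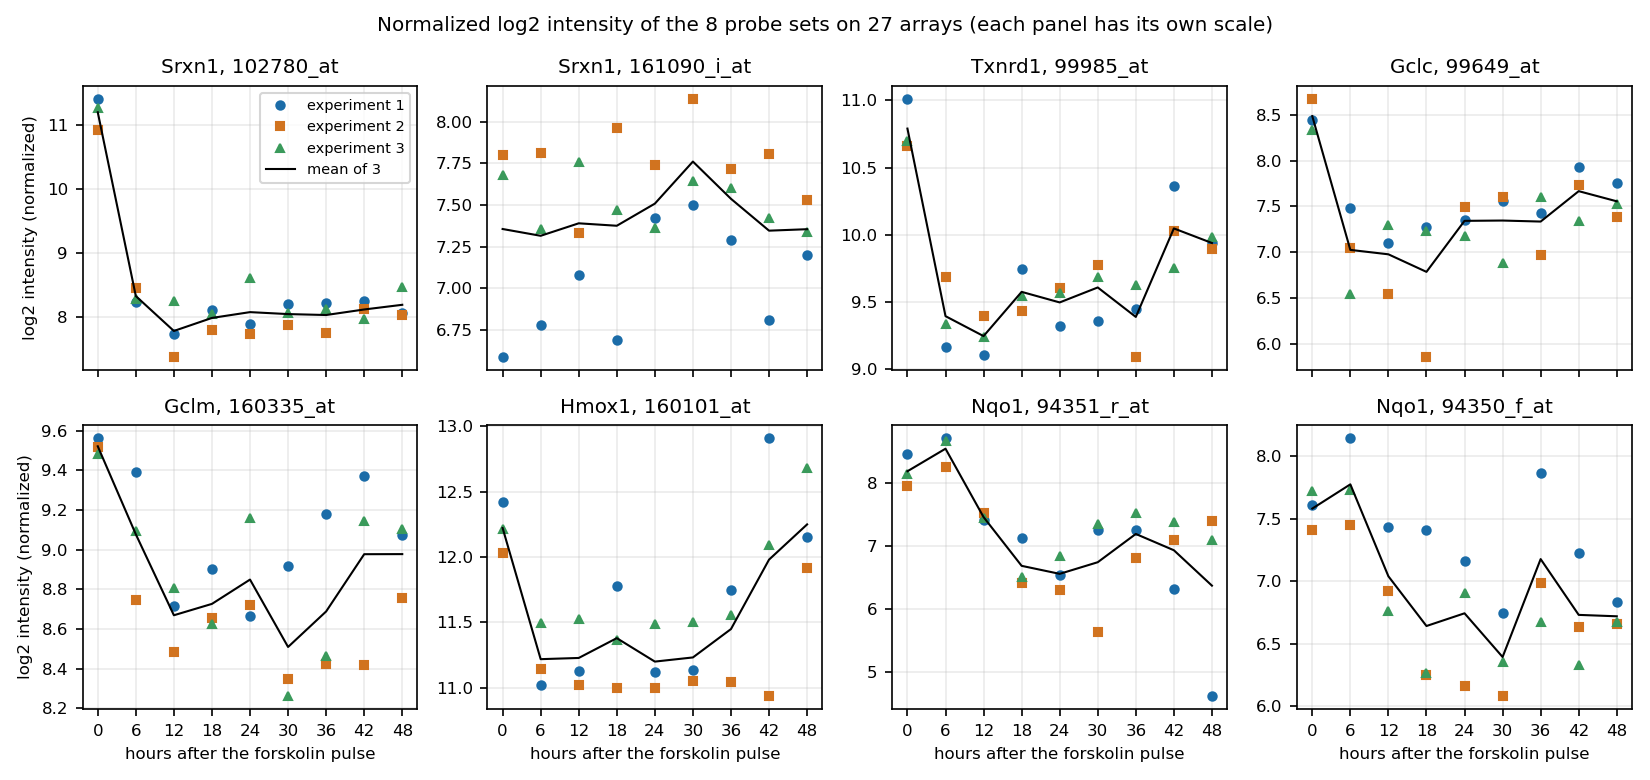
Normalized log2 intensity (vertical axes, each panel on its own scale) of the 8 probe sets against hours after the forskolin pulse, with symbols for the 3 experiments and a line for their mean. Srxn1 102780_at dropped from a mean of 11.20 at 0 h to 8.32 at 6 h, while Srxn1 161090_i_at went from 7.36 to 7.32, and Hmox1 was back at 12.25 by 48 h.

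Srxn1 encodes sulfiredoxin, which restores peroxiredoxins whose active cysteine has been over-oxidised, and it had the largest fall of the 6 genes. Its probe set 102780_at read 2670.6, 1967.7 and 2430.6 at 0 h in experiments 1, 2 and 3. At 6 h it read 291.8, 338.8 and 294.7, and at 12 h it read 213.9, 146.8 and 276. Every later array stayed far below every 0 h array. The readings were 277.5, 212.7 and 235.9 at 18 h, 234.9, 193.7 and 369.3 at 24 h, and 300.9, 211.1 and 248.9 at 30 h. They were 307.1, 202.6 and 256.8 at 36 h, 309.9, 271.1 and 232 at 42 h, and 268, 240.4 and 331.6 at 48 h. The 8 later times overlapped each other in their neighbouring order, and the gap below 0 h was the only one without overlap.

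On the log2 scale the Srxn1 102780_at level was 11.20 ± 0.25 (SD, n = 3) at 0 h and between 7.78 and 8.32 as a mean at the later times. It fell by 3.14 ± 0.17 (SE) from 0 h to the later mean, 8.79-fold, with an adjusted p of 9.64e-12, and was lower in 3 of 3 experiments. It fell by 2.88 ± 0.23 from 0 h to 6 h, adjusted p = 3.38e-08, and fell by 3.42 ± 0.23 from 0 h to 12 h, 10.7-fold, adjusted p = 1.95e-09. At 48 h the difference from 0 h was −3.01 ± 0.23, adjusted p = 6.23e-09. From 6 h on the level did not vary past the threshold, with an adjusted p of 1 for the F test and 0.461 with the block. Among 12 alternative settings, the difference of the later mean ranged from −3.16 to −2.96, and it passed in each.

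The other Srxn1 probe set, 161090_i_at, did not fall. It read 93.8, 195.1 and 182.5 at 0 h, 94.1, 209.4 and 145.5 at 6 h, and 142.7, 164 and 142.9 at 48 h. Experiment 1 was the lowest at 0 h, at 6 h and at 48 h, and the times overlapped. Its later mean minus 0 h was 0.09 ± 0.26, adjusted p = 0.894, or 0.743 with the block, and single experiments gave 0.51, −0.04 and −0.19. The suffix _i marks a set with fewer unique probes than the design asked for, and the platform annotation gives the set no source sequence. Which transcript its probes meet was not tested.

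The disagreement was tested on the within-array difference of the 2 probe sets, over 1266 pairs of probe sets from 941 genes. The change of 102780_at was 3.23 ± 0.34 lower than that of 161090_i_at between 0 h and the later mean, and lower in 3 of 3 experiments. The F test over the 9 times gave an adjusted p of 0.00204, or 4.83e-07 with the block. Only 5 pairs passed, 0.395% of all, with Col3a1, Hspa4, Nmt1 and Fbln1 beside Srxn1, the others being named after their values were seen. With the block 53 passed, or 4.19%. Across the 27 arrays, centred by experiment, the 2 Srxn1 probe sets had r = −0.133, where the median pair had 0.217, a description over shared arrays. Of the 1266 pairs, 160 had a lower r. With experiment 2 or experiment 3 left out, 0 of the 1266 pairs passed.

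**Figure D2:**
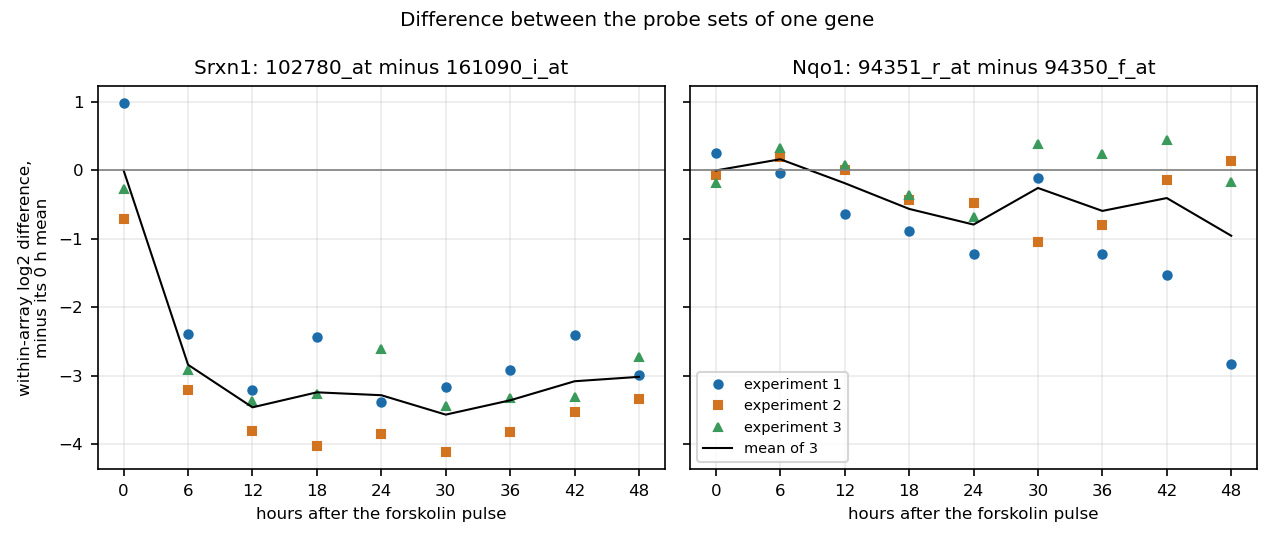
Within-array log2 difference between the 2 probe sets of Srxn1 (left) and of Nqo1 (right), minus its mean at 0 h, against hours after the pulse, for 3 experiments and their mean. The Srxn1 difference was at −2.84 at 6 h and at −3.01 at 48 h, while the Nqo1 means ran from 0.16 at 6 h to −0.95 at 48 h, with experiment 1 far down at 48 h.

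Txnrd1 encodes the cytosolic thioredoxin reductase, which passes electrons from NADPH to thioredoxin. Its probe set read 2060.4, 1591.5 and 1660.3 at 0 h, 568.6, 814.1 and 640.7 at 6 h, and 546.5, 652.1 and 578.2 at 12 h. It read 850.9, 671.3 and 720.4 at 18 h, 642.2, 770.9 and 759 at 24 h, and 656.4, 871.1 and 808.8 at 30 h. It read 690.7, 537.6 and 760.7 at 36 h, 1277.8, 1026.4 and 854.8 at 42 h, and 968.7, 966.3 and 1016 at 48 h. The 0 h arrays were the highest, the means of 42 h and 48 h came next, 1 array of 42 h lay within the range of 30 h, and the normalized 48 h arrays all lay above every array from 6 h to 36 h.

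Txnrd1 fell by 1.20 ± 0.13 to the later mean, 2.30-fold, adjusted p = 8.55e-07, in 3 of 3 experiments. Txnrd1 and Srxn1 102780_at were the 2 of the 8 probe sets that fell at an adjusted p below 0.05 at each of the 8 later times, where 2.09% of all probe sets were called at all 8 in either direction (5.64% with the block). The Txnrd1 difference from 0 h was −1.40 ± 0.18 at 6 h and −1.54 ± 0.18 at 12 h, but −0.74 ± 0.18 at 42 h, adjusted p = 0.00968, and −0.85 ± 0.18 at 48 h, adjusted p = 0.0031. The call at 42 h was lost without experiment 2, at 0.0644, and without experiment 3, at 0.291, and that at 48 h without experiment 3, at 0.0893. At 42 h it was 0.65 ± 0.18 above 6 h, adjusted p = 0.0409, where 1.57% of probe sets were higher (6.61% with the block), a contrast that was not among the planned tests. That rise lost its call without any 1 of the experiments, at adjusted p = 0.268, 0.129 and 0.296. The rise from 6 h to 48 h, 0.54 ± 0.18, had an adjusted p of 0.0919, or 0.0339 with the block, where 1.56% and 6.79% of probe sets were higher.

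Gclc and Gclm encode the catalytic and the modifier subunit of glutamate-cysteine ligase, the rate-limiting enzyme of glutathione synthesis. The Gclc probe set read 343.7, 378.6 and 301.8 at 0 h, 165.3, 118.2 and 75.8 at 6 h, and 155.3, 49.7 and 129.7 at 18 h. At 42 h it read 249.5, 205.4 and 147.5, and at 48 h 215.1, 145.8 and 165.2. No later array reached the 0 h range, and the later times overlapped each other. Gclc fell by 1.23 ± 0.25 to the later mean, 2.34-fold, adjusted p = 0.00122, in 3 of 3 experiments and in each of 11 alternative settings. The difference was −1.45 ± 0.33 at 6 h and −1.69 ± 0.33 at 18 h, both past the threshold, but without experiment 2 no single time passed, with 0.0621 at 6 h and 0.104 at 18 h, and the call at 6 h was lost without experiment 3 (0.176). At 42 h it was −0.82 ± 0.33, adjusted p = 0.159, and at 48 h −0.93 ± 0.33, adjusted p = 0.0944, or 0.0323 with the block. Its mean level at 18 h, 6.79, was close to 6.77, the limit of the filter, and its size there is uncertain.

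Gclm had the smaller fall of the pair. It read 743.4, 707.1 and 700.8 at 0 h, 668.4, 420 and 536.4 at 6 h, 485.5, 299 and 288.4 at 30 h, and 538.9, 409.3 and 536.3 at 48 h. The 3 arrays at 0 h were close together and above all others, while the later ones spread widely and experiment 1 was the highest at 6 h and 30 h. Gclm fell by 0.71 ± 0.18 to the later mean, 1.64-fold, adjusted p = 0.00895, in 3 of 3 experiments. That call was lost without experiment 2, at 0.113, and without experiment 3, at 0.141. At 6 h its difference from 0 h was −0.44 ± 0.24, adjusted p = 0.363, and 0.105 with the block. It was −0.85 at 12 h, adjusted p = 0.0285, and −1.01 ± 0.24 at 30 h, adjusted p = 0.0105, the lowest mean of the course. Both of these calls were lost without experiment 2 (0.188 and 0.104) and without experiment 3 (0.232 and 0.292). Whether Gclc and Gclm differ in their change was not tested.

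Hmox1 encodes the inducible heme oxygenase, which splits heme into biliverdin, carbon monoxide and iron, and it had the highest percentile of mean level among the 8 probe sets, 95.8. It read 5429.4, 4381.2 and 5052.4 at 0 h, 2067.9, 2276.1 and 2905.3 at 6 h, and 2186.9, 2082.6 and 3002.4 at 12 h. It read 3404.8, 2013.1 and 2670 at 18 h, 2160.8, 2008.1 and 2890.2 at 24 h, and 2172.4, 2146.4 and 2925 at 30 h. It read 3289.7, 2071.4 and 3082.4 at 36 h, 7305.6, 1925 and 4328.9 at 42 h, and 4391.2, 3894.3 and 6376.7 at 48 h. All arrays from 6 h to 36 h were below those of 0 h, the 3 experiments disagreed at 42 h, and at 48 h they overlapped with 0 h.

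The Hmox1 later mean was 0.73 ± 0.24 below 0 h, 1.66-fold, adjusted p = 0.0493, or 0.00426 with the block, in 3 of 3 experiments, with 20 of 24 later arrays under the lowest 0 h array. The call without the block was lost when any 1 experiment was left out, at adjusted p = 0.114, 0.0914 and 0.241. The difference was −1.0 ± 0.33 at 6 h, adjusted p = 0.0715, or 0.00565 with the block, and −1.02 ± 0.33 at 24 h, adjusted p = 0.0598, or 0.00431 with the block. At 42 h it was −0.24 ± 0.33, adjusted p = 0.789, with an SD of the level of 0.99. At 48 h it was 0.03 ± 0.33, adjusted p = 0.98, and its sign changed with the scaling. From 6 h to 48 h the difference was 1.03 ± 0.33, higher in 3 of 3 experiments, adjusted p = 0.0822, or 0.00557 with the block. That contrast, too, was not among the planned tests.

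Nqo1 encodes a reductase that turns quinones into hydroquinones. Its probe set 94351_r_at read 348.8, 220.4 and 260.8 at 0 h, 416.5, 291.1 and 386.7 at 6 h, and 171.7, 167.1 and 151.4 at 12 h. It read 138.7, 76.6 and 71.4 at 18 h, 88.4, 61.9 and 95.1 at 24 h, and 157.2, 34.4 and 146.6 at 30 h. It read 158.3, 99 and 167.3 at 36 h, 73, 127.5 and 153.8 at 42 h, and 14.3, 146.7 and 117.5 at 48 h. The arrays of 0 h and 6 h were above all later ones, and experiment 1 at 48 h was close to the pseudocount of 12.1. The other probe set, 94350_f_at, read 193.5, 147.2 and 188.9 at 0 h, 271.4, 162.9 and 194.2 at 6 h, 111.9, 50.6 and 67.3 at 30 h, and 110.8, 80.9 and 84.7 at 48 h. It too was highest at 6 h, and experiment 1 gave the highest of these readings at each time.

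At 6 h both Nqo1 probe sets stood above 0 h in 3 of 3 experiments, by 0.36 ± 0.51 (94351_r_at, adjusted p = 0.826) and 0.19 ± 0.36 (94350_f_at, adjusted p = 0.878). For 94350_f_at the difference was 0.54 in experiment 1, but only 0.04 in experiment 2 and 0.007 in experiment 3. At the same time Srxn1 102780_at, Txnrd1 and Gclc fell, 3 of the 8 probe sets, against 2.39% of all, and 4 with the block, against 6.74%. The later mean of 94351_r_at was 1.13 ± 0.38 below 0 h, adjusted p = 0.0555, or 0.0246 with the block. That of 94350_f_at was 0.68 ± 0.27 below, adjusted p = 0.107, or 0.00968 with the block. Both were lower in 3 of 3 experiments. At 48 h 94351_r_at differed from 0 h by −1.81 ± 0.51, adjusted p = 0.0285, but by −0.82, adjusted p = 0.332, without experiment 1, and the call was also lost without experiment 3 (0.193) and with array weights (0.0535). At 30 h 94350_f_at differed by −1.19 ± 0.36, adjusted p = 0.0496, or 0.00168 with the block. The call without the block was lost without experiment 2 (0.322) or experiment 3 (0.435), without the filter (0.0826), with medians centred (0.0619) and on the values as deposited (0.109).

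Set against 6 h, 94351_r_at was lower by 2.17 ± 0.51 at 48 h, adjusted p = 0.018, where 1.92% of all probe sets were lower, but by 1.24, adjusted p = 0.138, without experiment 1. This call was also lost without experiment 2 (0.0645) and without experiment 3 (0.304). At 24 h it differed from 6 h by −1.99 ± 0.51, adjusted p = 0.111, or 0.0187 with the block, where 0.107% and 2.63% of probe sets were lower. For 94350_f_at the difference at 30 h was −1.38 ± 0.36, adjusted p = 0.0741, or 0.00154 with the block, where 0.483% and 4.21% were lower. Both probe sets had means near or under the lowest kept mean of 6.77 at several later times, so the sizes of these falls are uncertain. The suffix _r marks a set whose probe selection rules were dropped and _f one whose probes also occur in related sequences, and both were drawn from the same source sequence.

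The 2 Nqo1 probe sets did not differ past the threshold. The change of 94351_r_at minus that of 94350_f_at, from 0 h to the later mean, was −0.45 ± 0.45, and the F test over the 9 times had an unadjusted p of 0.66 and an adjusted p of 0.684 with the block. Their r across the 27 arrays, centred by experiment, was 0.76, above that of 1195 of the 1266 pairs.

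Taking the later times singly, between 2 and 5 of the 8 probe sets fell at each. At 12 h 4 fell, against 3.73% of all probe sets, at 18 h 4 against 3.48%, and at 24 h 3 against 2.84%. At 30 h 5 fell against 2.87%, at 36 h 4 against 3.48%, at 42 h 2 against 3.1%, and at 48 h 3 against 3.23%. With the block 5 fell at 12 h, against 9.5%, 7 at 18 h, against 9.19%, 7 at 24 h, against 7.96%, and 7 at 30 h, against 7.85%. With it 5 fell at 36 h, against 8.33%, 4 at 42 h, against 9.02%, and 6 at 48 h, against 9.07%. In the fit without the block 0 rose at any later time, where 3.7% of all probe sets rose by 6 h, 4.6% by 12 h, 4.07% by 18 h and 4.08% by 24 h. The share was 3.72% for 30 h, 3.85% for 36 h, 3.98% for 42 h and 4.67% for 48 h. All these contrasts share the 3 arrays of 0 h. The heat map of changes from 0 h sets them side by side.

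**Figure D3:**
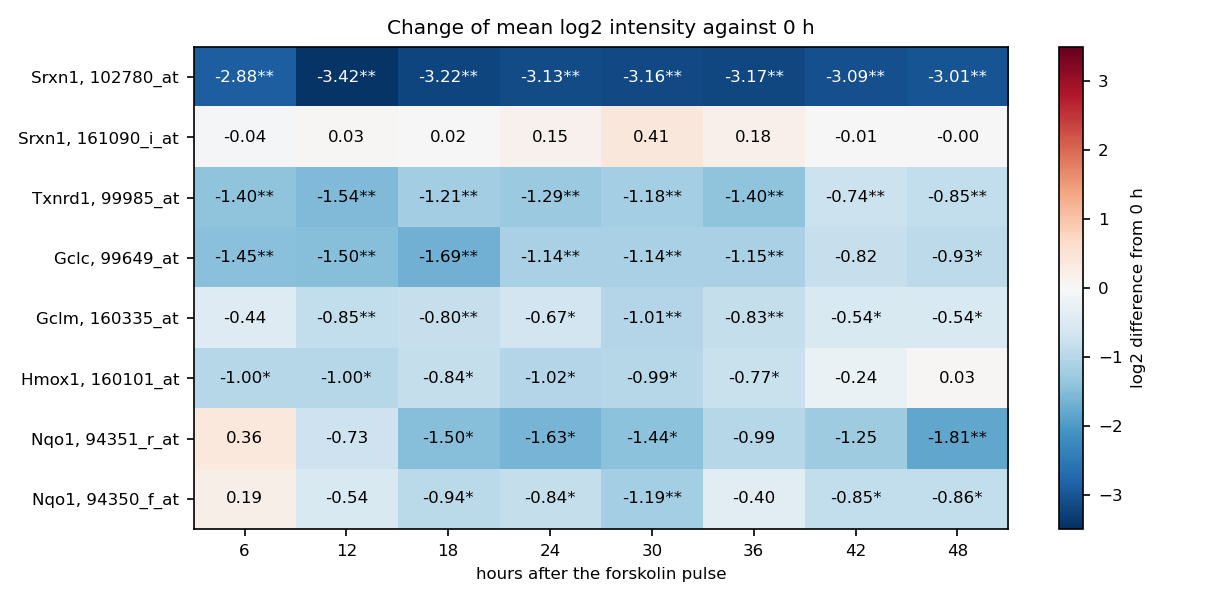
Difference of mean log2 intensity from 0 h (colour and printed value) for the 8 probe sets (rows) at each later time in hours (columns), with 2 asterisks for an adjusted p below 0.05 in the fit without the block and 1 asterisk where this held only with the experiment as a block. The row of Srxn1 102780_at runs from −2.88 to −3.42, and Nqo1 94351_r_at is at 0.36 at 6 h and −1.81 at 48 h.

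Over all 9 times the F test called 4 of the 8 probe sets, against 7.3% of all, Srxn1 102780_at at an adjusted p of 1.52e-08, Txnrd1 at 5.34e-05, Gclc at 0.0353 and Nqo1 94351_r_at at 0.0447. With the block it called 7, against 26.4%. From 6 h to 48 h the same test called 0 of 8, against 1.41%, with 4 at an unadjusted p below 0.05, against 10%. With the block it called 4, against 12.2%, Txnrd1 at 0.0174, Hmox1 at 0.0153, Nqo1 94351_r_at at 0.0453 and Nqo1 94350_f_at at 0.0125. Leaving out any 1 experiment left 1 or 2 calls over the 9 times.

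A linear trend from 6 h to 48 h passed for 0 of the 8 probe sets, against 2.83% rising and 3.3% falling among all, with 3 rising at an unadjusted p below 0.05, against 9.2%. With the block 3 rose, against 8.05%. Hmox1 rose by 0.46 ± 0.17 per day, adjusted p = 0.108, or 0.0198 with the block. Gclc rose by 0.44 ± 0.16 per day, adjusted p = 0.114, or 0.0404 with the block, and Txnrd1 by 0.27 ± 0.09, adjusted p = 0.0947, or 0.046 with the block. Srxn1 102780_at, at 0.03 ± 0.11, Gclm, at −0.05 ± 0.13, and both Nqo1 probe sets, at −0.55 ± 0.28 and −0.27 ± 0.21, did not pass in either fit.

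The study's question was circadian, and none of the 8 probe sets had a rhythm of a 24 h period at an adjusted p below 0.05, with or without the block. At an unadjusted p below 0.05 there were 0 of 8, against 3.33% of all probe sets, and 0 against 10.5% with the block. In limma's test 0 of all 7453 probe sets passed after adjustment, so the result cannot show that these genes lack a rhythm. That fit kept the 18 h and 30 h arrays of experiment 1, and without them 1 of all probe sets passed. Txnrd1 had the smallest unadjusted p of the 8, 0.125, with an amplitude of 0.16 on the log2 scale.

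The profiles were also compared across the 27 arrays, each centred by its experiment, as a description over shared arrays. Among the 6 genes, each by its brighter probe set, Srxn1 and Txnrd1 had r = 0.819, Hmox1 and Txnrd1 0.782, Gclc and Txnrd1 0.771, and Gclm and Srxn1 0.728. Lower values were 0.725 for Gclc and Srxn1, 0.612 for Gclm and Hmox1, and 0.61 for Gclm and Txnrd1. Gclc and Hmox1 had 0.548, Gclc and Gclm 0.527, and Hmox1 and Srxn1 0.501. Nqo1 had 0.435 with Srxn1, 0.381 with Gclm, 0.105 with Txnrd1, 0.0943 with Gclc and −0.0471 with Hmox1. The genes most like Srxn1 were Dgat1, which makes triglycerides, at 0.956, Vdr, the vitamin D receptor, at 0.955 and 0.941 for its 2 probe sets, Pdpn, podoplanin, at 0.940, and Ramp3, a receptor partner protein, at 0.932. Those most like Txnrd1 were the chaperone gene Hsph1 at 0.938, the co-chaperone gene Bag3 at 0.906, the transcription factor gene Cebpd at 0.904, Thy1 at 0.872 and Cmip at 0.865. Hmox1 was most like Sash1 at 0.863, the early response gene Ier3 at 0.849, Myc at 0.814, Hk2, a hexokinase, at 0.814 and Cebpd at 0.799. Gclc was most like Cct3, a chaperonin subunit, at 0.850, followed by Lmnb2, Bnip2, Abcf2 and Gmppb, down to 0.803. Gclm was most like Slc38a2, an amino acid transporter, at 0.817, followed by Sgpp1, Pdxk, Myo1d and Tnpo1, down to 0.761. Nqo1 was most like Spdl1 at 0.783, followed by Mvd, Emc10, Gpc1 and Dlx2, down to 0.750.

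The genes around the 6 enzymes were read from 7 lists of 75 genes. Of these, 61 were on the array with a single symbol and 54 passed the filter, each by its brightest probe set. In the later mean against 0 h, 3 of the 54 fell, 2 rose and 49 did not pass, so 5.56% fell, where 6.04% of all 5643 genes fell. Their median change was −0.04, and that of all genes was 0.01. The share that rose was 3.7%, against 7.9% of all genes. With the block 6 fell, Nfe2l2, Cul3, Txn1, Txn2, Taldo1 and Ugdh, or 11.1% against 12.7% of all genes, and 4 rose, Glrx, Prdx4, Gstm1 and Gstt1, or 7.41% against 15.6%. The dot plot by list shows every member.

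**Figure D4:**
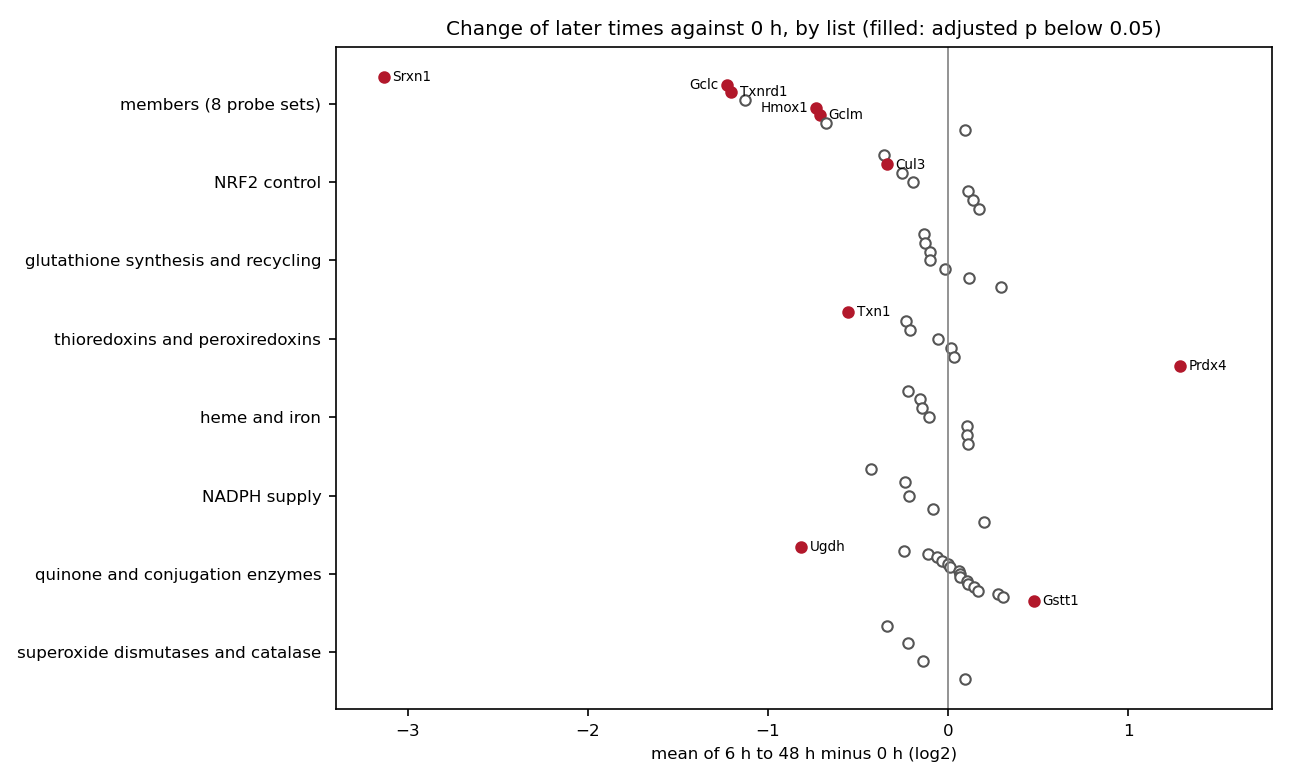
Later mean (6 h to 48 h) minus 0 h on the log2 scale (horizontal axis) for the 8 probe sets of the 6 enzymes and for the measured genes of 7 lists (rows), with a filled point and a name where the adjusted p was below 0.05. 5 of the enzymes' probe sets are filled, from −0.71 to −3.14, while 49 of the 54 list genes are open and lie around 0.

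Of the NRF2 control genes, 7 of 9 passed the filter, and Keap1 and Maff did not. In the later mean 1 of the 7 fell, where 6.04% of all genes did. Cul3 was the 1 that fell, by 0.34 ± 0.10, adjusted p = 0.0253, and this was lost without experiment 2, at 0.282, and without experiment 3, at 0.147. Nfe2l2, the NRF2 gene, was 0.35 ± 0.18 lower, adjusted p = 0.221, or 0.0305 with the block, in 3 of 3 experiments. Bach1 was at 0.14 ± 0.29, Mafk at 0.11 ± 0.22, Mafg at −0.19 ± 0.14, Sqstm1, whose product binds KEAP1, at −0.26 ± 0.14, and Nfe2l1, a relative of Nfe2l2, at 0.17 ± 0.13. None of these passed in either fit. NRF2 is controlled mainly through its protein, which was not measured.

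Among all genes 6.04% fell and 7.9% rose, so 0 or 1 call says little about a short list. In glutathione synthesis and recycling, 0 of 7 genes fell and 0 rose, with changes from −0.13 to 0.29. The highest was Glrx, glutaredoxin, at 0.29 ± 0.11, adjusted p = 0.0723, or 0.00957 with the block. Gss, which completes glutathione after glutamate-cysteine ligase, was at −0.10 ± 0.24 and Gsr, glutathione reductase, at −0.13 ± 0.22. Among the thioredoxins and peroxiredoxins, 1 of 7 fell and 1 rose. Txn1, the cytosolic thioredoxin that Txnrd1 reduces, fell by 0.55 ± 0.11, adjusted p = 0.00148, and Prdx4, a peroxiredoxin of the endoplasmic reticulum, rose by 1.29 ± 0.19, adjusted p = 4.62e-05. Prdx2 and Prdx3, at −0.05 ± 0.08 and 0.03 ± 0.11, did not pass in either fit.

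For the remaining lists, too, the shares of all genes were 6.04% falling and 7.9% rising. Among the heme and iron genes 0 of 7 passed, with changes from −0.22 to 0.11. The smallest p was that of Urod, an enzyme of heme synthesis, at −0.22 ± 0.16, adjusted p = 0.455, and the list held Hmox2, the constitutive heme oxygenase, at −0.16 ± 0.19, Blvra, biliverdin reductase, at 0.11 ± 0.13, and Fth1, ferritin heavy chain, at 0.11 ± 0.10. Of 5 NADPH supply genes 0 passed, and with the block Taldo1, transaldolase, fell, at −0.43 ± 0.15, adjusted p = 0.06 without the block and 0.0115 with it. Among 17 quinone and conjugation genes 1 fell and 1 rose. Ugdh, which makes UDP-glucuronate, fell by 0.81 ± 0.10, adjusted p = 5.7e-06, and Gstt1, a glutathione transferase, rose by 0.48 ± 0.13, adjusted p = 0.0149, a call lost without experiment 2, at 0.186, and without experiment 3, at 0.301. Of the superoxide dismutases and catalase 0 of 4 passed, with Sod3, the extracellular enzyme, at −0.22 ± 0.13, adjusted p = 0.309, and Sod2, the mitochondrial one, at −0.34 ± 0.19, adjusted p = 0.31. At 6 h alone, 1 of the 54 list genes fell, Ugdh, and 3 rose, Idh1 by 0.60, Gstt1 by 0.72 and Mgst2 by 1.89, where 144 of all 5643 genes fell and 232 rose. With the block Nfe2l2 (−0.51, adjusted p = 0.0312) and Txn2 (−0.23, 0.0477) also fell at 6 h. The share of all that fell so was 6.74%, counted by probe set and not by gene. Prdx4 (0.81, 0.000388), Glrx (0.42, 0.0087) and Gstm1 (0.34, 0.0317) also rose at 6 h with the block, though Glrx was lower in 1 of 3 experiments. The share of all genes that rose at 6 h with the block is not given here. These added rises therefore cannot be set against it and say little about the lists.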

How the data were processed

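The authors deposited linear probe set intensities for 27 arrays (mouse U74v2). Their algorithm was not given in the sources used here. Detection calls were not used. With 3 arrays a time point, the array number limits precision. No identical arrays were found.

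The intensities were taken as log2(intensity + 12.1), the 10th percentile of all values, and quantile normalized. Controls and probe sets under the 40th percentile of mean log2 value were left out. Tests used limma 3.58.1 in R 4.3.3, eBayes with an intensity trend and Benjamini-Hochberg adjustment over 7453 probe sets, at 0.05. One fit held the 9 time means, and the trend and the 24 h cosine and sine terms were fitted to the 24 arrays from 6 h to 48 h. Probe sets of one gene were tested on within-array differences over 1266 pairs. The labels' experiment numbers paired the samples, since deviations from the time means correlated within each experiment (r from 0.426 to 0.642, 0.349 to 0.599 and 0.135 to 0.482). P-values without the block rest on the spread of the arrays about their time means, pooled over the 9 times. Those with the block rest on the spread left once the experiment means are also taken out. The former take the arrays as independent, though arrays of one experiment deviated together. The later-mean contrast, the trend and rhythm estimates and the pair F test, all without the block, were tested on simulated data with independent errors. The fits with the block and the promoter search were not.

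The members and lists were chosen with earlier results of these data known. Genes named were all members, for each member the 5 probe sets of highest r, every measured NRF2 control gene, and in other lists the genes that passed or else the smallest p, with others added after values were seen. Gene symbols are those of the platform annotation. Alternatives changed the scaling, pseudocount, filter, variance model, array weights, block, trend terms and arrays.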

Additional observations from a re-analysis of the deposited data

How the results depend on the processing

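Counts here are of the 8 probe sets. The count called over the 9 times was 4, but 2 without the filter, 2 with the filter at the 60th percentile, which kept 4 of the 8, 7 with array weights and 7 with the experiment as a block, and ranged from 1 to 2 when 1 experiment was left out. From 6 h to 48 h it was 0, but 2 with array weights and 4 with the block. For the trend it was 0, but 3 with the block and 2 without rhythm terms. The count lower in the later mean ranged from 3 to 4, and that called at every later time from 1 to 2, when 1 experiment was left out. The Srxn1 pair was called except with the 60th percentile filter, which removed a partner (0), and ranged from 0 to 1 over the experiments left out. The rhythm count was 0 in every setting run.

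Signs turned for Hmox1 at 48 h, −0.047 as deposited, −0.058 with medians centred and from −0.18 to 0.18 with 1 experiment left out, and for Hmox1 at 42 h, from −0.62 to 0.19. They also turned for Srxn1 161090_i_at, −0.051 with array weights and from −0.12 to 0.23 with 1 experiment left out, and for Bach1, from −0.18 to 0.43. None of these was called, and the cause was not tested. Hmox1's fall also lost its call without the filter, at 0.0743, and without the intensity trend, at 0.0631. Txnrd1's rise at 42 h lost its call with medians centred, at 0.102, and without the filter, at 0.0576.

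Among all 7453 probe sets, 984 changed in the later mean, 2005 with the block, 552 without experiment 2 and 360 without experiment 3. The F test over the 9 times called 544, 1969 with the block, 1135 with array weights, 111 without experiment 2 and 31 without experiment 3. From 6 h to 48 h it called 105, 912 with the block, 480 with array weights, 162 without experiment 1, 5 without experiment 2 and 1 without experiment 3. The trend called 457, 1272 with the block, 718 with array weights, 835 without rhythm terms, 739 without experiment 1, 92 without experiment 2 and 37 without experiment 3. Pairs called numbered 5, 53 with the block, 30 with array weights, 10 with a pseudocount of 50, and 0 without experiment 2 or 3. Leaving out the 18 h and 30 h arrays of experiment 1 moved no count of the 8 by over 1.5 times. Of the single values recomputed, 947 kept their direction and side of the threshold, 67 newly passed, 62 no longer passed and 7 changed sign.

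Levels of Nqo1, Gclc and Srxn1 161090_i_at were near the filter limit, so their changes are the least precise. No cultures without the pulse were analysed here.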
